A study of Mus musculus with 39 samples.

Results

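The comparison described here sets breast tissue of mice labelled Triple (SB/Tg/k5Cre) against breast tissue of mice labelled Triple (SB/Tg/Bcat), and takes 11 of the 39 arrays of the series. The arrays were chosen by their genotype label alone. Triple K5Cre comprised 8 arrays from 8 animals, and triple Bcat comprised 3 arrays from 2 animals. Array 1 of triple Bcat came from animal Tbc-2173, and arrays 2 and 3 both came from animal Tbc-266 by their titles. Both genotypes carry SB and Tg, so the labels differ in which of K5Cre and Bcat is present. SB belongs to a series on Sleeping Beauty, and the labels spell out neither Tg nor the Bcat allele. K5Cre is in common use the name of a Cre recombinase driven by the keratin 5 promoter, which is active in basal cells of stratified and glandular epithelium. The labels give the tissue as breast and give no strain, age, sex or histology for these 11 arrays, and they do not say whether a sample was a tumour.

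The other 28 arrays were used as context. These were 19 quadruple arrays (SB/Tg/K5Cre/Bcat, 15 animals), 4 normal mammary glands, and 5 lesions labelled Bcat +/-, of which 2 were breast samples labelled masses and 3 were tumours taken from the ventral side of 1 animal. Normal gland 1 came from a triple Bcat animal, gland 2 from a quadruple animal, and glands 3 and 4 from the triple K5Cre animals T627 and T635, which also gave triple K5Cre breast arrays 2 and 3.

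Sleeping Beauty is a mobile DNA element that inserts into the genome when its transposase is present and can alter the genes it lands in. Beta-catenin, encoded by Ctnnb1, links cadherins to the cytoskeleton at cell junctions and is also the transcriptional arm of canonical Wnt signalling. The mammary gland consists of an outer basal layer, marked by keratins 5 and 14, and an inner luminal layer, marked by keratins 8 and 18. Mammary epithelium with active Wnt signalling is known to take on features of skin and hair follicle.

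All values are log2 expression on Affymetrix arrays, normalized together, with array medians between 5.10 and 5.27. A difference of 1 is therefore a doubling, and differences are given as fitted by limma with their standard error (SE). The tissue was bulk, so fewer cells of a type and less RNA per cell cannot be told apart. In the main fit, the p-values set each group difference against the spread within groups, pooled over all arrays of the series. The context arrays therefore also shape that spread. Nothing in the labels states how separately the samples were processed, so the p-values apply to these samples only.

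The triple K5Cre arrays were themselves heterogeneous. Krt14, the keratin of basal cells, stood at 9.91, 7.37, 13.03, 12.81, 12.70, 10.33, 9.61 and 13.40 in arrays 1 to 8, against 13.97, 13.10 and 12.32 in triple Bcat. Krt8, a luminal keratin, ran the other way within triple K5Cre, at 13.28, 13.28, 10.84, 11.43, 11.14, 14.25, 13.35 and 11.07, against 10.41, 12.92 and 12.41. The groups overlapped for both. Epcam, a surface protein of epithelial cells, was between 11.73 and 13.30 in every triple K5Cre array and at 10.08, 11.98 and 11.78 in triple Bcat, so all 11 arrays held an epithelial signal.

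Single arrays stood apart. Triple K5Cre array 2 had Krt5 at 5.74, where the other 7 arrays ran from 9.98 to 12.35. The same array had Xist, the RNA of the inactive X chromosome, at 7.0, where the others of its group ran from 11.43 to 12.25, and the normal gland of the same animal had Xist at 5.64. The Y-linked gene Eif2s3y was at 2.34 in array 2 and between 2.28 and 2.74 over the group. Triple K5Cre array 7 held skeletal muscle, with the mean of 15 muscle genes at 11.28 against 4.10 to 4.72 in the other 7 and 4.44 to 4.84 in triple Bcat. Array 1 held milk protein RNA, with a list mean of 12.67 against 4.90 to 8.21. Over all genes the correlation between triple K5Cre arrays ran from 0.902 to 0.983, and that between triple K5Cre and triple Bcat arrays from 0.863 to 0.974.

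Ctnnb1, the gene named by the Bcat label, gave different answers from its brightest probe set and from the others. The brightest of the 3 probe sets, which stood for the gene in the test across genes, was at 12.88, 12.65, 12.89, 13.07, 13.39, 12.76, 12.95 and 13.06 in triple K5Cre and at 12.40, 13.16 and 13.14 in triple Bcat. These groups overlapped, and the fitted difference of triple Bcat minus triple K5Cre was -0.10 (SE 0.17, limma adjusted p = 0.832). The probe set second in level stood at 10.40, 10.03, 10.21, 10.80, 11.62, 10.51, 10.58 and 10.72 against 12.29, 11.84 and 11.73.

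The dimmest Ctnnb1 probe set stood at 7.50, 7.55, 7.38, 8.54, 9.30, 8.23, 8.12 and 8.30 in triple K5Cre and at 11.47, 9.99 and 10 in triple Bcat. For both of these probe sets every triple Bcat array lay above every triple K5Cre array, with array 5 the highest of its group. With every probe set tested on its own, an analysis added after the values were seen, the differences were 1.34 (SE 0.52) and 2.41 (SE 0.82), or 2.54-fold and 5.33-fold. Neither passed the adjustment over all 45101 probe sets (limma, adjusted p = 0.421 and 0.42), and in the 11 arrays alone the adjusted p-values were 0.304 and 0.169. All triple Bcat arrays lay above all triple K5Cre arrays in 541 of the probe sets (1.2%), and the opposite held for 868 (1.92%). Of all probe sets, 5 were called (0.0111%), all higher in triple Bcat (0.0111%), and 11 (0.0244%) in the 11 arrays alone, while 4720 had an unadjusted p under 0.05 (10.5%).

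These dimmer probe sets also differed among the context arrays. The dimmest was at 10.26 in the gland of the triple Bcat animal and at 7.07 and 7.43 in the glands of the triple K5Cre animals, and it was at 7.18 in the gland of the quadruple animal. It ran from 11.29 to 12.13 over the 5 Bcat +/- lesions. The quadruple arrays spread from 7.33 to 11.89 with a median of 9.15, and 8 of the 19 lay above the highest triple K5Cre array. Lesions stood above quadruple by 2.28 (SE 0.64, limma adjusted p = 0.0584). The brightest probe set showed no such order, with lesions between 12.69 and 12.88 and quadruple between 12.37 and 13.36.

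**Figure D1:**
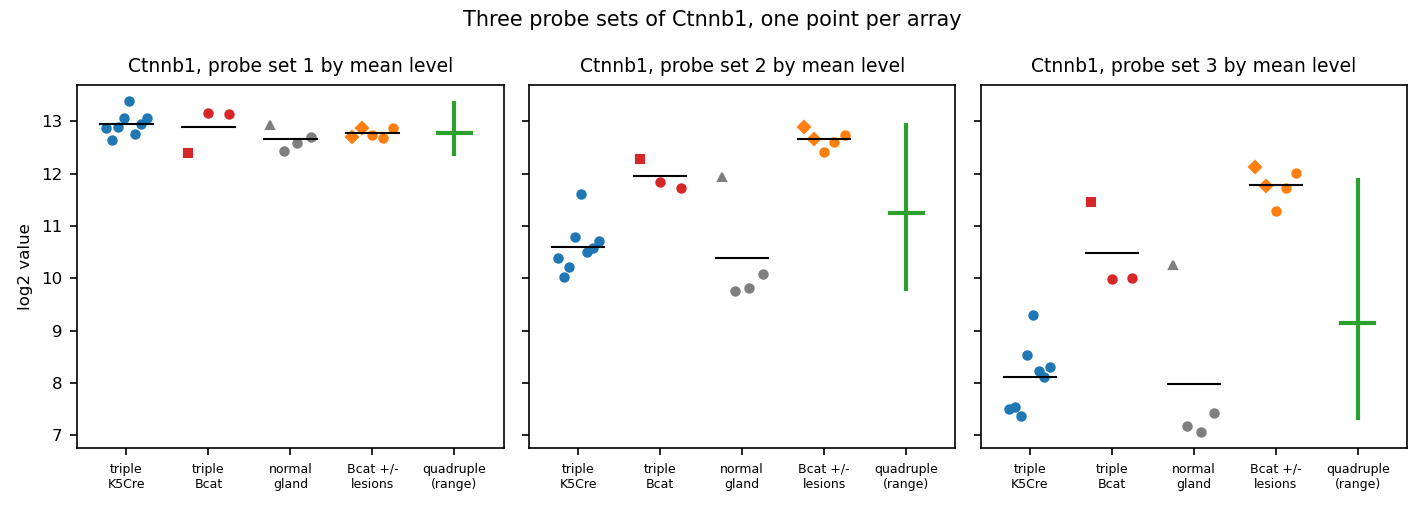
Log2 value of the 3 Ctnnb1 probe sets (panels, brightest to dimmest) in each array; black bars are group means, the red square is animal Tbc-2173, the grey triangle is the gland of the triple Bcat animal, orange diamonds are masses and orange circles ventral tumours, and the green line is the range and median of 19 quadruple arrays. In the dimmest probe set the triple Bcat arrays (9.99 to 11.47) sit above the triple K5Cre arrays (7.38 to 9.30), while the brightest does not separate them.

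Across the 18194 genes, 7 passed the test at an adjusted p under 0.05 (0.0385%), and all 7 were higher in triple Bcat. None was called higher in triple K5Cre by limma (0%). At an unadjusted p under 0.05 there were 2206 genes (12.1%), of which those higher in triple Bcat made up 4.66% of all genes and those higher in triple K5Cre, 1358 in number, 7.46%. The median difference over all genes was near 0 (triple K5Cre minus triple Bcat, 0.03). By fitted difference 8365 of all genes (46%) stood higher in triple Bcat, the share to set beside the counts of list members below. On simulated data of the same layout, 57 of 100 genes changed by 1 log2 unit and 83 of 100 changed by 2 were recovered. The simulation drew normal noise for each gene separately, with the same spread in all groups. Recovery in the real arrays, where the triple Bcat animals differed widely from each other, was not measured. The count of calls depended on single arrays: it was 12 without any 1 of the triple Bcat arrays and 4 without triple K5Cre array 1, 2, 4, 5 or 6.

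Sycp2, which encodes a lateral element protein of the meiotic synaptonemal complex, stood at 2.71, 3.08, 2.67, 2.67, 2.84, 3.10, 2.83 and 2.64 in triple K5Cre and at 4.08, 3.60 and 3.97 in triple Bcat. It rose in triple Bcat by 1.08 (SE 0.16, limma adjusted p = 0.000938). Bpifb9b, of the BPI fold family of secreted lipid-binding proteins, stood at 4.37, 4.14, 4.73, 3.84, 4.15, 4.11, 4.15 and 4.34 against 5.03, 5.98 and 5.23, a rise of 1.13 (SE 0.17, adjusted p = 0.000938). The groups did not overlap for either gene.

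U90926 stood at 5.21, 4.68, 5.59, 4.79, 4.86, 4.80, 4.79 and 4.95 against 7.87, 5.83 and 7.01, a rise of 2.03 (SE 0.34, limma adjusted p = 0.00491). 1810046K07Rik stood between 3.08 and 3.53 in triple K5Cre and at 3.56, 5.63 and 5.03 in triple Bcat, a rise of 1.40 (SE 0.25, adjusted p = 0.0158). Its value in animal Tbc-2173 lay 0.03 above the highest triple K5Cre array, so the difference rested on both arrays of animal Tbc-266. Without animal Tbc-266, 1810046K07Rik was not called.

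Prok2, a secreted prokineticin that neutrophils and other myeloid cells make, stood at 2.94, 3.19, 3.19, 2.84, 2.93, 3.21, 3.67 and 4.30 in triple K5Cre and at 5.89, 4.90 and 4.52 in triple Bcat. It rose in triple Bcat by 1.89 (SE 0.37, limma adjusted p = 0.0362). Triple K5Cre arrays 7 and 8 were the highest of their group, and array 8 lay 0.22 below the lowest triple Bcat array. The 3 genes whose values followed Prok2 most closely over the 39 arrays were Mmp8 (Pearson r = 0.90), Nfe2 (0.88) and Pram1 (0.86), a description over arrays that share animals and tissue makeup.

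Lgi3, a secreted leucine-rich repeat protein, stood between 3.34 and 4.15 against 4.80, 4.65 and 4.52, a rise of 0.89 (SE 0.18, limma adjusted p = 0.0448). Fbxl16, an F-box protein, stood between 3.77 and 4.55 against 4.80, 5.2 and 5.21, a rise of 0.90 (SE 0.18, adjusted p = 0.0468). Fbxl16 was at 4.58 to 5.21 in the 4 normal glands, so triple Bcat lay at the level of the glands and triple K5Cre below it. Prok2 and Lgi3 lost their call without triple Bcat array 1 or 2, and Fbxl16 without array 2 or 3. All 3 also lost it without triple K5Cre array 1, 2, 4, 5 or 6, and with the mean of all probe sets. U90926 lost it without triple Bcat array 1, and 1810046K07Rik without array 2.

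All 7 genes were dim, and none was among the 12129 genes left when the dimmest part of the list was removed. Limma then called 0 genes, while 1794 had an unadjusted p under 0.05. In the 11 arrays alone 11 genes were called, of which Sycp2 was the only one of the 7.

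**Figure D2:**
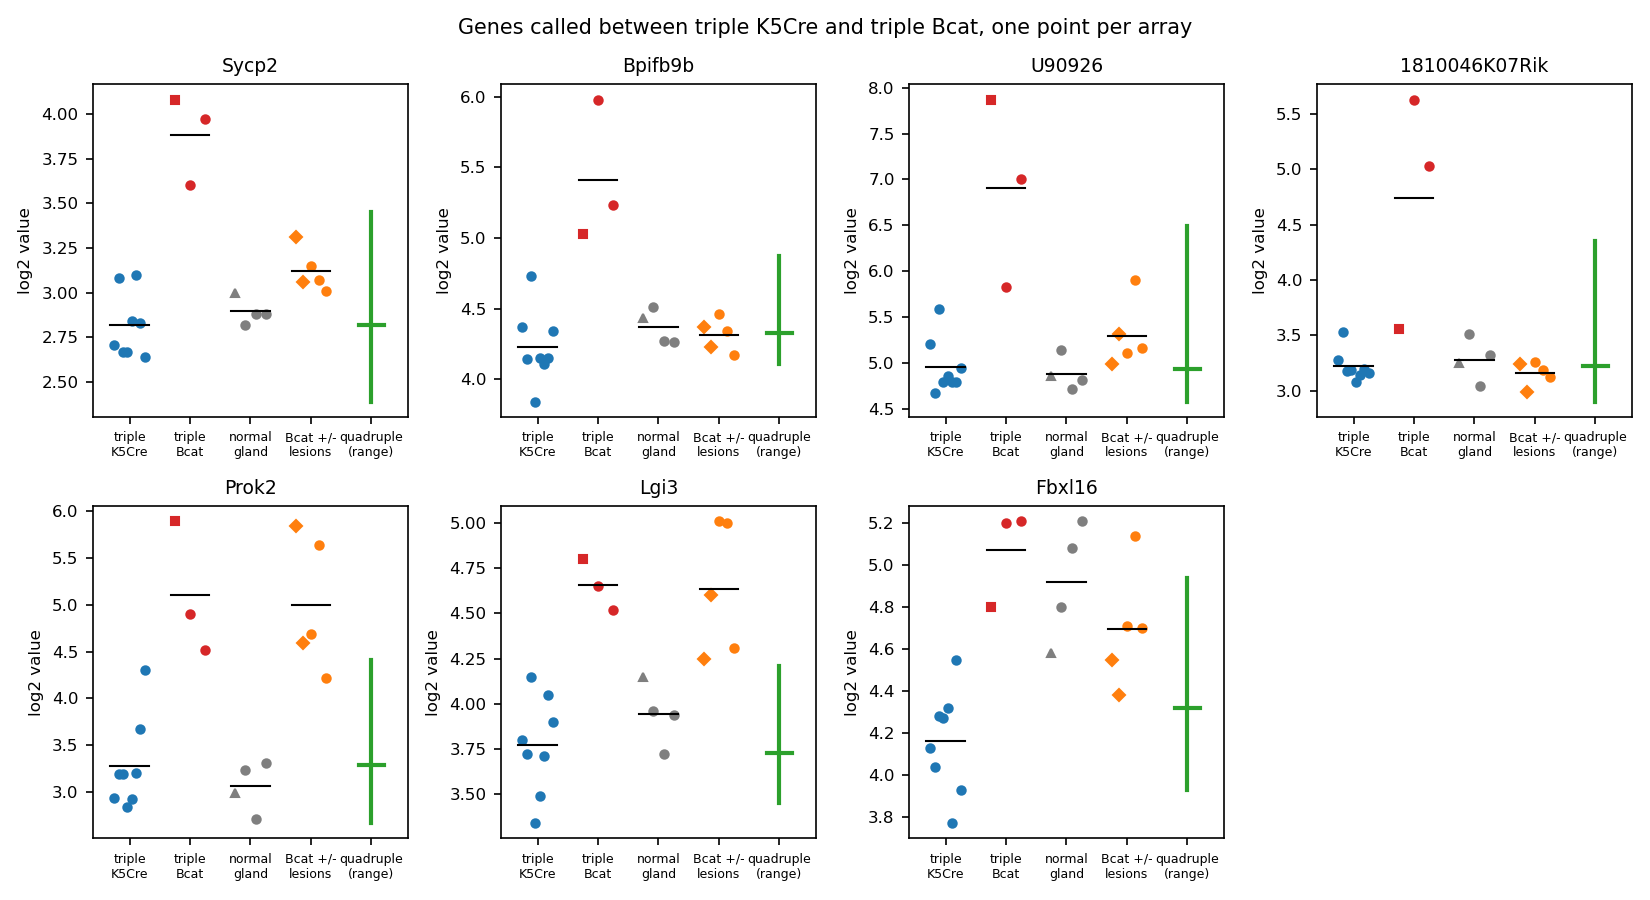
Log2 value of the 7 genes called between the groups, per array, with group means as black bars and the range and median of the quadruple arrays in green; squares, triangles and diamonds mark animal Tbc-2173, the gland of the triple Bcat animal and the masses. Every triple Bcat array lies above every triple K5Cre array in each panel, and Prok2 and Lgi3 are also high in the Bcat +/- lesions.

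Because few genes passed, groups of genes are described by how many members had every triple Bcat array above every triple K5Cre array. This held for 264 of all genes (1.45%), and the opposite held for 443 (2.43%), together 707 (3.89%). Without triple K5Cre arrays 2 and 7 the counts were 684 (3.76%) and 971 (5.34%), and without triple Bcat array 1 they were 587 (3.23%) and 879 (4.83%). Of 44 gene lists with 575 distinct measured members, 0 members were called, so none of the list results below passed the test gene by gene.

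Neutrophil genes stood highest in triple Bcat relative to triple K5Cre. The median difference of the 16 measured genes of neutrophil granules and receptors was 2.69, 15 of them had the higher group mean in triple Bcat, 11 had an unadjusted p under 0.05, and 8 did not overlap. The mean of the list was 6.28, 8.14, 8.23, 7.02, 6.75, 5.79, 7.99 and 8.94 in triple K5Cre and 10.67, 9.42 and 9.41 in triple Bcat. No array of one group reached the other, and array 8 of triple K5Cre came nearest. Without triple K5Cre arrays 2 and 7 the number that did not overlap was 11. The share of all genes in that direction also rose, from 1.45% to 3.76%.

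Mmp8, the collagenase stored in neutrophil granules, stood at 4.22, 4.26, 4.24, 3.58, 3.75, 3.99, 6.08 and 5.59 against 8.16, 7.30 and 8.31, a difference of 3.48 (SE 0.72) just outside the threshold (limma adjusted p = 0.0585). Cxcr2, the chemokine receptor that draws neutrophils into tissue, stood at 5.30 to 7.65 against 8.28, 8.28 and 8.50 (2.15, SE 0.59, adjusted p = 0.319). Csf3r, the receptor of the granulocyte growth factor, stood at 5.68 to 8.92 against 9.74, 9.48 and 10.17, and Stfa2l1, a stefin of granulocytes, at 3.76 to 8.03 against 12.78, 8.78 and 8.45. S100a8, a calprotectin subunit also made by wounded keratinocytes, stood at 6.66 to 13.69 against 14.37, 14.02 and 13.78. Its partner S100a9 overlapped, at 6.15 to 13.58 against 14.30, 13.73 and 13.41. The other non-overlapping members were Mmp9, Fpr2 and Clec4e, a gelatinase and a pair of receptors for bacterial or damage signals.

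Chemokines that recruit neutrophils stood in the same direction. The 10 measured genes had a median difference of 2.60, or 1.67 without triple Bcat array 1. Of these genes 7 had an unadjusted p under 0.05, where 4.66% of all genes had one in that direction. The groups did not overlap for 6, where the share of all genes was 1.45%. Ppbp, among the 6, also belongs to the list of blood cell genes. Cxcl3 stood at 4.34, 4.74, 8.04, 5.31, 3.42, 3.33, 7.73 and 9.75 in triple K5Cre against 11.14, 10.87 and 10.45 in triple Bcat, a difference of 4.96 (SE 1.76, limma adjusted p = 0.348). Cxcl2 stood at 5.04 to 9.88 against 12.18, 10.50 and 10.74 (4.08, SE 1.46), Cxcl5 at 4.39 to 10.03 against 10.28, 11.41 and 11.12, and Ppbp at 2.89 to 6.86 against 7.77, 9.95 and 9.58 (4.65, SE 1.15, adjusted p = 0.205). Csf3, the granulocyte growth factor itself, stood at 4.84 to 7.61 against 10.08, 7.85 and 8.08, and Ccl4, a chemokine of macrophages and monocytes, at 6.16 to 7.75 against 9.30, 8.05 and 8.61. Cxcl1 did not separate the groups. It was at 12.87 in triple K5Cre array 2, above the 10.50, 9.72 and 9.87 of triple Bcat, while the other 7 arrays ran from 7.96 to 10.05.

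Cxcl1, Cxcl2, Cxcl3 and Ppbp lie in the same region of mouse chromosome 5. Their promoters are shown because Cxcl2, Cxcl3 and Ppbp had the largest fitted differences of the list while Cxcl1 did not separate the groups. The sequences are the 100 bases before each transcription start on the plus strand, from RefSeq on GRCm38.p6, at chr5:90891145-90891244 for Cxcl1, chr5:90903799-90903898 for Cxcl2, chr5:90786001-90786100 for Cxcl3 and chr5:90768418-90768517 for Ppbp. Capitals mark GGAATTTCC, the core of a site of the kind bound by NF-kB, searched on both strands.
Cxcl1: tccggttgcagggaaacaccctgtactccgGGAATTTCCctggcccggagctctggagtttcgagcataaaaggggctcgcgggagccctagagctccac
Cxcl2: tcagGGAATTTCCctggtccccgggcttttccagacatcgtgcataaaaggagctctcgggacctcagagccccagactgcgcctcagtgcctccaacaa
Cxcl3: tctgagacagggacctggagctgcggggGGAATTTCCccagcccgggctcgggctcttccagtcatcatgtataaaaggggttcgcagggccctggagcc
Ppbp: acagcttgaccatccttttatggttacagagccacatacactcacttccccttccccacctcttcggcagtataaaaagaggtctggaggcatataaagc

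The letters began 70, 96 and 72 bases before the start in Cxcl1, Cxcl2 and Cxcl3 and were absent from the Ppbp window. Over 300-base windows around the start they occurred in 104 of 32851 promoters (0.317%), in 3 of the 7 chemokine genes with a window and in 0 of the 6 called genes with one. Cxcl1 and Cxcl3 thus share the letters and differed in whether their groups overlapped. A match describes the letters alone.

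Genes that inflammatory signals switch on stood the same way with smaller gaps. Among 15 measured cytokines and prostaglandin enzymes the median difference was 1.77, and Il1b, Osm and Il24 did not overlap. Over all genes 1.45% did not overlap in that direction. Il1b, the cytokine released on inflammasome activation, stood at 6.35 to 9.54 against 11.71, 10.09 and 10.40 (2.77, SE 1.03, limma adjusted p = 0.348). Osm, oncostatin M, stood at 4.69 to 6.17 against 7.80, 6.33 and 6.40. Il17a was high in animal Tbc-2173 alone, at 7.35 against 3.39 and 3.73 in animal Tbc-266 and 3.01 to 3.69 in triple K5Cre, and without that animal the median of the list was 0.97. Among 14 NF-kB and feedback targets the median was 0.78, or 0.48 without triple Bcat array 1. Nfkbia, the inhibitor that NF-kB induces, stood at 11.40 to 12.19 against 13, 12.29 and 12.62, Birc3 at 8.56 to 9.70 against 10.45, 9.78 and 10.27, and Saa3, an acute-phase protein, at 5.35 to 11.81 against 12.49, 13.16 and 13.80.

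The list of matrix metalloproteinases, plasminogen activator genes and inhibitors had a median difference of 1.36 over 14 genes. Mmp3, Mmp8, Mmp9 and Mmp13 did not overlap, where 1.45% of all genes did not in that direction. Mmp8 and Mmp9 were already counted among the neutrophil genes. Mmp13 stood at 6.13 to 10.54 against 12.43, 10.87 and 11.41. Mmp11, which had the smallest p beside Mmp8, overlapped (4.61 to 6.38 against 7.87, 5.93 and 6.48). Other immune lists held no member that separated the groups. Macrophage genes had a median of 0.69 over 14 genes, but it was 1.44 without triple Bcat array 1, 0.31 without array 3 and -0.70 without animal Tbc-266. T cell genes had 0.26 over 12, and 0.53 without animal Tbc-266. Interferon-stimulated genes had -0.07, and their sign changed with the array left out, from -0.35 to 0.25. B cell and plasma cell genes had 1.41, which was 2.27 without triple Bcat array 1 and 0.13 without animal Tbc-266, and their list mean was 5.14 in animal Tbc-2173 against 7.98 and 7.68 in animal Tbc-266. Ms4a1, the B cell antigen CD20, stood at 4.47, 9.47 and 8.56 in triple Bcat and 3.34 to 6.20 in triple K5Cre.

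**Figure D3:**
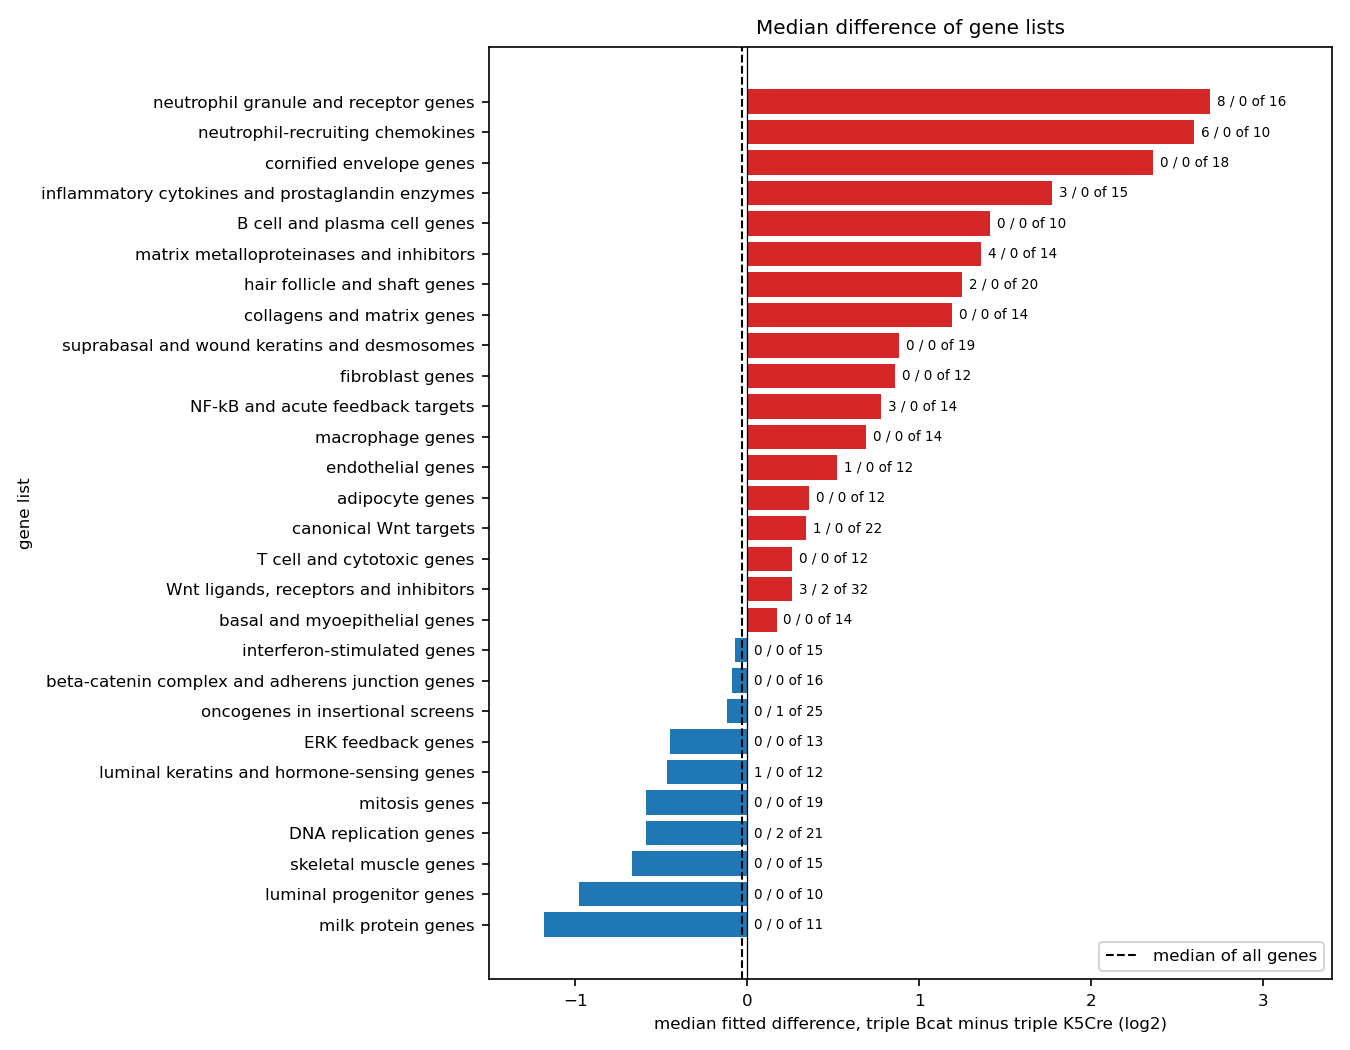
Median fitted difference (triple Bcat minus triple K5Cre, log2) over the measured members of 28 gene lists, with the median of all genes as a dashed line; the numbers beside each bar count members with every triple Bcat array higher, then every triple K5Cre array higher, of those measured. Neutrophil genes (2.69) and their chemokines (2.60) stand at one end and milk protein genes at the other (-1.18).

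Stroma followed in the same direction without separating the groups. All 14 collagen and matrix genes had the higher group mean in triple Bcat, with a median of 1.19 and 0 not overlapping, and Col1a1 stood at 7.86 to 11.19 against 10.50, 11.16 and 11.58. Without animal Tbc-266 that median was 0.78. Fibroblast genes had a median of 0.86 over 12 genes, which was 1.45 without triple Bcat array 1 and 0.10 without animal Tbc-266. Endothelial genes had 0.52 over 12, and 0.33 without triple Bcat array 3 and 0.23 without animal Tbc-266. Tie1, an endothelial receptor, did not overlap, with a gap of 0.01. Triple K5Cre array 7, which held muscle, had the highest collagen mean of all 11 arrays at 12.10.

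Genes of the outer skin layers had high medians and wide overlap. The 18 measured cornified envelope genes had a median difference of 2.36 and all 18 had the higher group mean in triple Bcat, yet 0 separated the groups. Their mean was 4.63, 4.18, 9.96, 9.26, 8.88, 5.08, 6.20 and 10.35 in triple K5Cre and 12.04, 9.67 and 7.44 in triple Bcat. Triple K5Cre thus fell into arrays with these genes at high levels (3, 4, 5 and 8) and arrays with low ones, and the triple Bcat arrays overlapped the former. Tgm3, the transglutaminase of the cornified envelope, stood at 11.64, 7.76 and 5.66 in triple Bcat and at 4.97 to 6.97 in triple K5Cre. Sprr2f, a small proline-rich protein of the envelope chosen after its values were seen, stood at 3.20 to 8.50 against 13.46, 10.86 and 9.75 (6.74, SE 2.12, limma adjusted p = 0.348). Without triple Bcat array 1 the median of the list was 0.94, and without animal Tbc-266 it was 4.69.

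Hair follicle genes had a median of 1.25 over 20, or 0.76 without triple Bcat array 3. Lhx2, a transcription factor of hair follicle stem cells, stood at 2.28 to 3.82 against 3.91, 4.09 and 4.71 and did not overlap, nor did Padi3. Sox9, of the same list, stood the other way, at 7.99 to 9.74 against 6.71, 8.68 and 8.36. The list mean was highest in triple K5Cre array 5 at 8.51, above the 6.87, 7.04 and 7.88 of triple Bcat.

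Among genes of the mammary lineage, luminal progenitor and milk protein genes stood higher in triple K5Cre, and the other lists had no settled direction. The 14 basal and myoepithelial genes had a median of 0.17, which was -0.25 without triple K5Cre array 2 and -0.38 without animal Tbc-266. Luminal keratin and hormone-sensing genes had -0.47, which turned to 0.83 without triple Bcat array 1, was -0.17 without triple K5Cre array 6 and was -1.39 without animal Tbc-266. Luminal progenitor genes had -0.98, between -1.26 and -0.68 with any 1 array left out. Kit, the receptor that marks luminal progenitors, stood at 11.56, 10.48, 9.65, 10.44, 10.80, 10.03, 8.56 and 10.67 against 6.38, 8.89 and 9.12 (2.29 higher in triple K5Cre, SE 0.82, limma adjusted p = 0.348). Array 7, the one with muscle, was the only triple K5Cre array within the range of triple Bcat. Cldn3, a tight junction protein, stood at 9.34 to 12.54 against 7.61, 10.12 and 9.72. All 11 milk protein genes had the higher group mean in triple K5Cre, with a median of 1.18 that was 0.38 without triple K5Cre array 1, and Csn3, a casein, stood at 6.88 to 14.41 against 4.14, 11.63 and 10.54.

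Wnt pathway genes were divided. The 22 measured canonical targets had a median of 0.34 in the direction of triple Bcat. It was 0.81 without triple Bcat array 1, between 0.18 and 0.55 without any 1 of the other arrays, and -0.42 without animal Tbc-266. Of the targets, 0 had an unadjusted p under 0.05 toward triple Bcat and 3 toward triple K5Cre. Over all genes the shares were 4.66% and 7.46%. Ccnd1 and Sox9 had the smallest p, and both stood higher in triple K5Cre. Axin2, a feedback inhibitor used as the readout of the pathway, was at 5.50, 5.29, 8.50, 8.59, 9.48, 5.58, 6.30 and 8.31 in triple K5Cre and at 7.73, 9.07 and 8.95 in triple Bcat, a difference of 1.26 (SE 0.89, limma adjusted p = 0.558). Arrays 3, 4, 5 and 8 of triple K5Cre, the same arrays that were high in cornified envelope genes, were at the level of triple Bcat, and arrays 1, 2, 6 and 7 lay below it. Lef1, a DNA-binding partner of beta-catenin, stood at 5.53, 5.64 and 6.30 in triple Bcat and at 4.44 to 5.02 in 7 of the triple K5Cre arrays, with 8.32 in array 5. Ccnd1, cyclin D1, ran the other way, at 11.05 to 12.25 against 10.47, 11.25 and 11.01 (1.02 higher in triple K5Cre, SE 0.42, limma adjusted p = 0.37).

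Of 32 Wnt ligands, receptors and inhibitors, 3 (Wnt16, Sfrp2 and Dkk3) lay wholly above in triple Bcat and 2 (Wnt5b and Lrp5) wholly above in triple K5Cre. Over all genes the shares in these directions were 1.45% and 2.43%. Of the 22 targets, Dkk1 alone separated the groups, where 3.89% of all genes did so in either direction. Wnt16 stood at 3.65 to 4.54 against 5.08, 5.80 and 6.10 (1.61, SE 0.43, limma adjusted p = 0.319). Dkk1, a secreted inhibitor that is itself a target, stood at 3.38 to 3.71 against 5.99, 6.40 and 4.98. No triple K5Cre array approached triple Bcat, but the fitted difference was not called (2.22, SE 1.48, limma adjusted p = 0.531). Sfrp2 stood at 4.40 to 9.14 against 9.67, 9.14 and 9.23, a gap of 0.00 after rounding. Wnt5b stood at 6.0 to 8.95 against 4.04, 5.66 and 5.87, and Lrp5, a Wnt co-receptor, at 5.13 to 5.93 against 4.69, 5.11 and 4.61, both higher in triple K5Cre. The gap between the groups was only 0.02 for Lrp5.

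**Figure D4:**
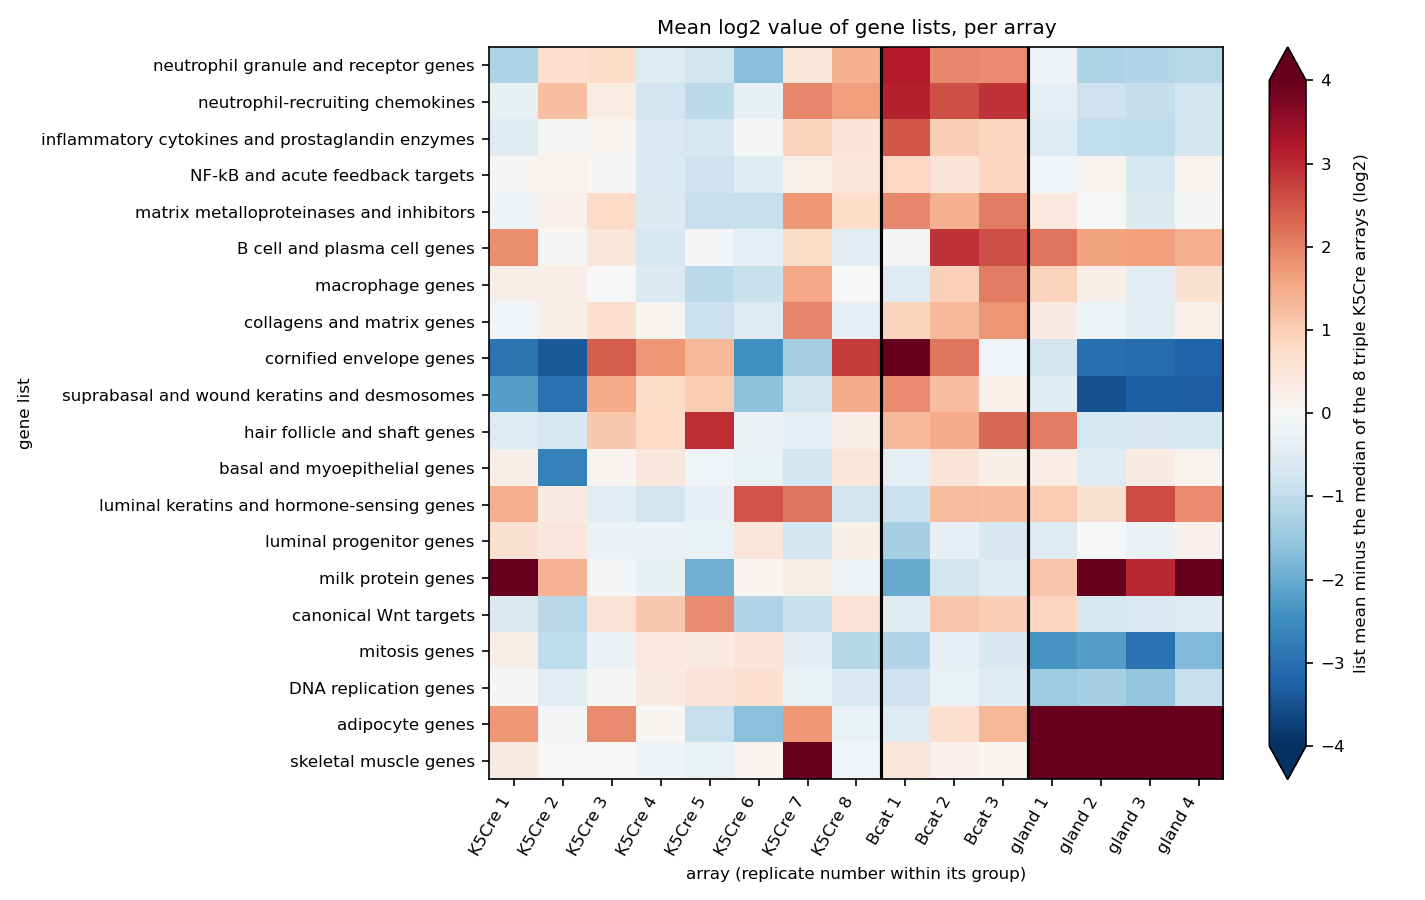
Mean log2 value of 20 gene lists in each of the 8 triple K5Cre, 3 triple Bcat and 4 normal gland arrays, drawn as the difference from the median of the triple K5Cre arrays (colour, cut at 4). The neutrophil and chemokine means are higher in all 3 triple Bcat arrays than in any triple K5Cre array, while the cornified envelope mean of triple K5Cre arrays 3, 4, 5 and 8 (8.88 to 10.35) lies within the range of triple Bcat.

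Proliferation genes stood higher in triple K5Cre by small amounts. All 19 mitosis genes and all 21 DNA replication genes had the higher group mean there, each list with a median of 0.59. Without triple Bcat array 1 both medians were 0.34, and without animal Tbc-266 they were 0.97 and 0.90. In the full set, 0 of the mitosis genes and 3 of the DNA replication genes had an unadjusted p under 0.05. Over all genes, 7.46% had one in that direction. Mcm6, a subunit of the replicative helicase, stood at 9.54 to 10.80 against 8.55, 9.47 and 9.39 (1.11 higher in triple K5Cre, SE 0.44, limma adjusted p = 0.359), and Rfc4, of the clamp loader, at 7.74 to 8.67 against 7.33, 7.73 and 7.50. Mki67 overlapped, at 9.25 to 10.97 against 9.18, 10.56 and 10.13. In the 4 normal glands the mean of the mitosis genes was 5.73 to 6.95, below all 11 arrays.

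Mycn, Irx2 and Shisa2 were among the single genes with all triple K5Cre arrays higher. Mycn, a Myc family transcription factor, stood at 8.05, 8.40, 7.53, 8.41, 8.43, 9.33, 7.59 and 7.63 against 6.85, 6.21 and 6.27 (1.66, SE 0.52, limma adjusted p = 0.345). Irx2, a homeobox gene, stood at 10.50, 10.69, 9.80, 10.39, 10.12, 10.90, 9.44 and 10.17 against 7.33, 9.17 and 9.16 (1.82, SE 0.54, adjusted p = 0.345), and its relative Irx1, whose groups overlapped, at 9.22 to 11.55 against 4.69, 9.74 and 9.09. Shisa2, an inhibitor of Wnt and FGF receptor maturation, stood at 6.58 to 9.84 against 3.19, 6.05 and 5.95 (2.97, SE 0.93). Irx1, Irx2, Shisa2 and Mmp7 were chosen after their values were seen. Etv5, a transcription factor induced by ERK signalling, stood at 7.90 to 11.10 against 6.82, 7.81 and 8.15 with overlap. Of 13 ERK feedback genes, 10 had the higher group mean in triple K5Cre and 0 separated the groups. Over all genes, 46% stood higher in triple Bcat by fitted difference.

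Quadruple arrays against the 5 Bcat +/- lesions give a comparison with K5Cre on one side that shares no array or animal with the one above, though the lesions also lack SB and Tg in their label and come from 3 animals. Both sides carry Bcat by label, so it does not repeat the contrast of triple K5Cre with triple Bcat. The titles of all 5 lesions carry the name C57, which those of the breast arrays of the other genotypes do not, so a difference in strain cannot be told apart from the genotype there. There, 264 of all genes were called by limma (1.45%), 165 higher in lesions (0.907%) and 99 higher in quadruple (0.544%). Of the 264 genes with every triple Bcat array higher, 236 (89.4%) stood higher in lesions and 25 (9.47%) were called so. The share of all genes higher in lesions was 48.6%. Of the 443 genes with every triple K5Cre array higher, 405 (91.4%) stood higher in quadruple, where 51.4% of all genes did, and 11 (2.48%) were called.

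Among the 7 called genes, Prok2 (1.74, SE 0.29, limma adjusted p = 0.000723) and Lgi3 (0.82, SE 0.14, adjusted p = 0.00108) were also called higher in lesions than in quadruple. These calls use the same probe set of each gene as the calls above, so they do not check the other probe sets of Prok2 and Lgi3. Sycp2, U90926 and Fbxl16 stood higher in lesions without a call, and Bpifb9b and 1810046K07Rik stood lower. Mmp8 rose in lesions by 3.73 (adjusted p = 0.0002) and Cxcr2 by 1.88 (adjusted p = 0.0383). In the other direction Irx2 was higher in quadruple by 2.19 (adjusted p = 0.00507), Irx1 by 2.82 (adjusted p = 0.0297), Mycn by 1.64 (adjusted p = 0.0382) and Shisa2 by 2.92 (adjusted p = 0.039). The values of Mycn were 6.20 to 6.52 over the lesions and 7.12 to 10.77 over the quadruple arrays, which did not overlap.

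The normal gland of the triple Bcat animal stood apart from the other 3 glands for several of the same genes. Mmp7, an epithelial metalloproteinase, was at 12.46 in that gland and at 5.64, 6.01 and 6.13 in the others. In the breast arrays Mmp7 was at 6.35, 12.70 and 11.69 in triple Bcat and at 4.88 to 5.98 in triple K5Cre. Wnt16 was at 6.16 in gland 1 against 4.50, 3.79 and 3.84, Lhx2 at 5.23 against 2.37 to 2.54, and Axin2 at 9.07 against 6.88 to 7.19. Of the 264 genes with every triple Bcat array higher, gland 1 stood above both triple K5Cre glands in 160 (60.6%), where 30.2% of all genes did, and above both by at least 1 log2 unit in 31 (11.7%), where 2.35% did. For the 443 genes of the other direction gland 1 stood below both in 274 (61.9%), against 42% of all genes. Both triple K5Cre glands came from animals whose breast arrays took part in choosing these genes, so the shares are not an independent check.

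Gland 1 is a single sample, so these values have no replicate check. It also held skin genes, with Krt10, a keratin of suprabasal skin, at 9.92 against 6.87 to 7.06, and a cornified envelope mean of 6.79 against 4.33 to 4.53, and their part in the result was not tested. Its neutrophil mean was 7.36 against 6.26 to 6.39, within the range of triple K5Cre and below all triple Bcat arrays. Prok2 was at 2.99 in gland 1, at the level of the other glands.

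**Figure D5:**
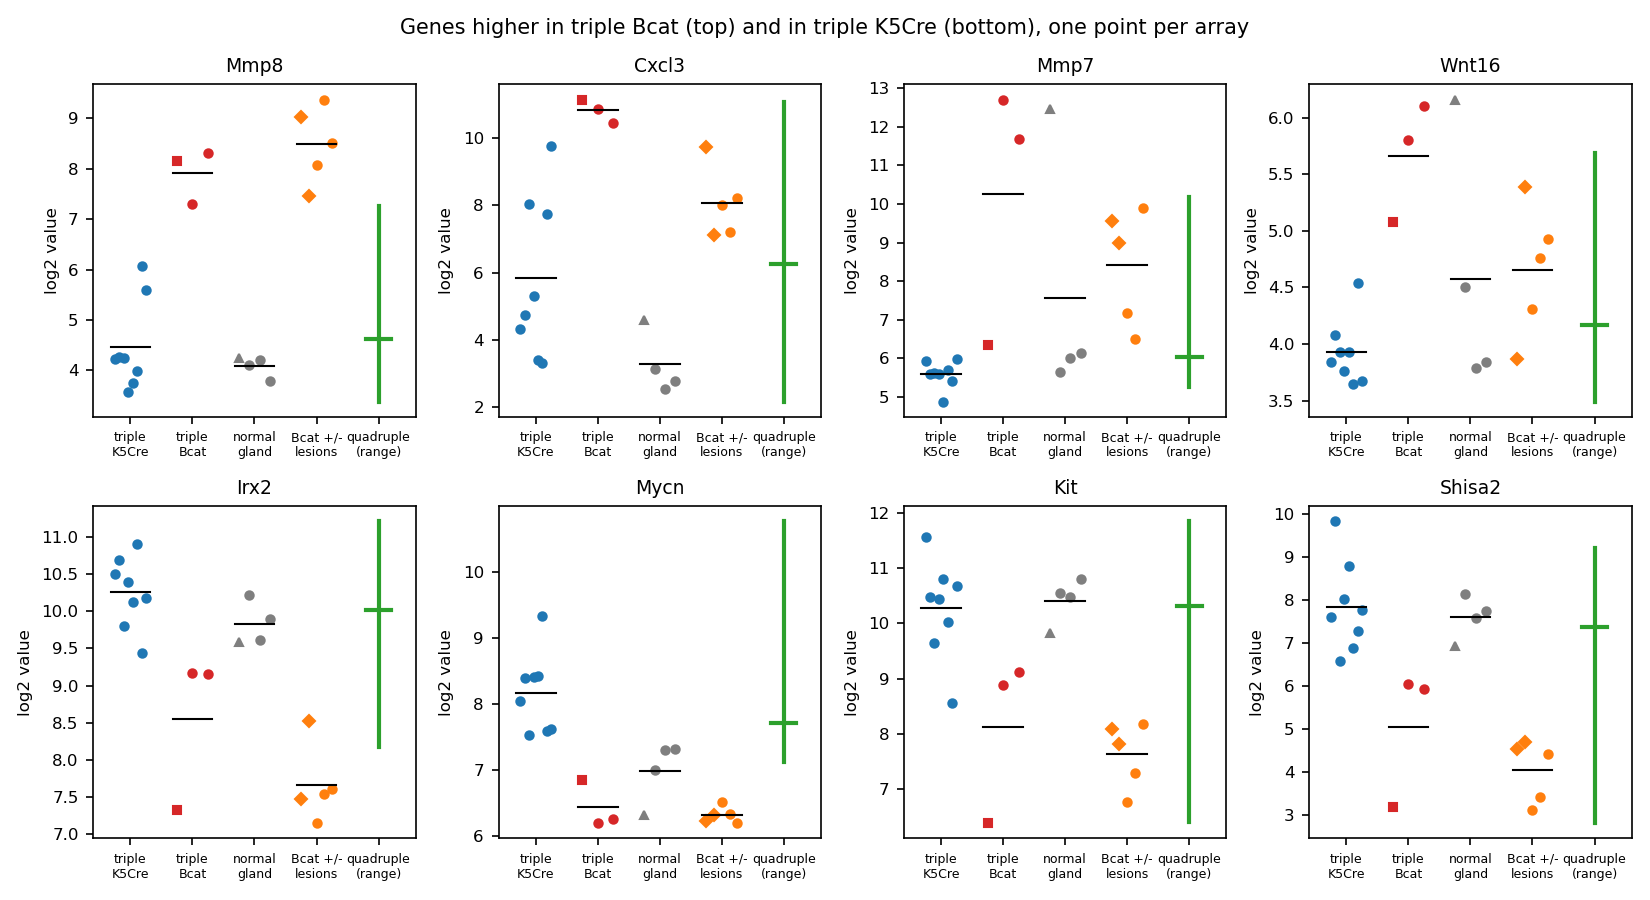
Log2 value per array of 4 genes with every triple Bcat array higher (top), of Irx2, Mycn and Shisa2 with every triple K5Cre array higher, and of Kit, whose groups overlap (bottom); black bars are group means, green is the range and median of quadruple arrays, the red square is animal Tbc-2173, the grey triangle the gland of the triple Bcat animal and orange diamonds the masses. Mmp7 and Wnt16 are high in that gland (12.46 and 6.16), Mmp8 and Cxcl3 are not, and Mycn in the lesions lies at the level of triple Bcat.

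The animals of triple Bcat differed widely from each other. Arrays 2 and 3, from animal Tbc-266, correlated at 0.989, and array 1 correlated with them at 0.943 and 0.924. Animal Tbc-2173 stood at least 2 log2 units above both arrays of animal Tbc-266 in 298 genes and as far below both in 282, while the arrays of animal Tbc-266 differed by that much in 57. Mmp7, Ms4a1 and Alcam were low in animal Tbc-2173 (6.35, 4.47 and 6.45) and high in animal Tbc-266 (12.70 and 11.69, 9.47 and 8.56, 9.59 and 9.45). Prg2, an eosinophil granule protein, and Alas2, the haem synthesis enzyme of red cells, were high in animal Tbc-2173 (7.79 and 10.66) and low in animal Tbc-266 (3.73 and 3.15, 5.72 and 6.20). Adipoq, the fat cell hormone adiponectin, was at 2.56 in animal Tbc-2173 and at 8.27 and 9.25 in animal Tbc-266, inside the triple K5Cre range of 2.78 to 10.24. The neutrophil genes were high in both animals.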

How the data were processed

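The labels' protocols describe total RNA labelled by Affymetrix 3' IVT Express and hybridised to mouse arrays. The authors deposited 45101 probe sets in 39 samples as log2 values, summarised by RMA per the submitters' processing notes (version not given in the sources used). RMA corrects background, normalizes between arrays and summarises probes. No detection call was applied, so a low value may be background.

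Names came from the platform's annotation, brought up to date with a RefSeq table (GRCm38.p6): 34958 probe sets carried 1 gene, 932 several and 9211 none, and 204 kept the platform's symbol. The brightest probe set stood for a gene, giving 18194 genes, with cross-hybridising sets used for the 100 genes that had no other. Animals were read from the sample titles, and replicate numbers only name arrays.

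All 39 arrays entered a limma fit with 6 group means, animal as a random block (consensus correlation 0.329) and eBayes with an intensity trend. P-values were adjusted by Benjamini-Hochberg over all genes and called under 0.05. Because arrays of an animal are weighted jointly, a fitted difference need not equal the difference of means. Non-overlap means that the lowest array of one group exceeds the highest of the other. The fit was tested on simulated data, where 5 unchanged genes were called.

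Named by rule were the called genes, the 2 smallest p-values of a list described, Ctnnb1, Krt5, Krt14, Krt8, Krt18, Epcam, Axin2, Lef1, Mki67, Adipoq, Xist, and the 3 genes most like Prok2. Clone and Riken names were to be left out, and 1810046K07Rik is named outside the rule because all 7 calls are shown. Other genes, including non-overlapping list members, were chosen after their values were seen. The arrays, members and lists were chosen with earlier results of these data known. The closing section gives the alternatives tried. Versions were limma 3.58.1 in R 4.3.3, and pandas 2.3.3, numpy 2.4.6 and matplotlib 3.10.9 in Python 3.11.15.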

Additional observations from a re-analysis of the deposited data

Results flagged for a closer look

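Over 204 values or list means, each taken in the 8 triple K5Cre arrays or the 4 glands, 26 had a highest or lowest array whose gap to its nearest neighbour took up most of the range (Dixon's criterion). Chance gives about 1 in 20 such groups, and genes of a list share their arrays.

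Normal gland 1, from the triple Bcat animal, was the array apart in 13 of them. It was high for the 2 dimmer Ctnnb1 probe sets (11.94 and 10.26), Axin2 (9.07), Lhx2 (5.23), Mmp7 (12.46), Krt10 (9.92) and Sprr2d (9.65), a small proline-rich protein of skin. It was also high for the means of neutrophil genes (7.36), cornified envelope genes (6.79), suprabasal keratins and desmosomes (8.81), hair follicle genes (7.63) and canonical Wnt targets (8.45). Csn2, a casein, was low there at 9.06, where the other glands ran from 12.89 to 13.62.

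Triple K5Cre array 2 was low for Krt5 (5.74), Xist (7.0) and the mean of basal genes (6.58) and high for Cxcl1 (12.87) and 1810046K07Rik (3.53). Array 5 was high for Lef1 (8.32) and Tgm3 (6.97), array 7 for Myh4 (11.38), a fast muscle myosin, and the muscle mean (11.28), and array 1 for the milk mean (12.67). Nfkbia was low in array 4 at 11.40. Gland 3 was low for Xist (5.64), and gland 2 for the mean of beta-catenin complex genes (8.59), where the other glands ran from 8.84 to 8.86.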

How the results depend on the processing

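The count of 7 called genes was 10 with no block, 7 with cyclic loess, 7 without the intensity trend, 6 with the adipocyte mean as a covariate and 5 with every probe set tested on its own. It was 3 with arrays averaged by animal, 11 in the fit of the 11 arrays alone (which borrowed the block correlation, since none could be estimated there), 0 with the dimmest genes left out and 4 with the mean of all probe sets. Array weights gave 2551, with weights of 0.263, 8.24 and 1.29 for triple Bcat arrays 1 to 3. Leaving out 1 array gave 4 to 12, leaving out animal Tbc-266, which left 1 triple Bcat array assumed to vary like the other groups, 917, and leaving out the 3 arrays low in Xist 4. Leaving out triple K5Cre arrays 2 and 7 gave 9; this, the Xist setting and the probe set tests were chosen after seeing the data. Sycp2 was called in all 23 settings that tested it, and its adjusted p reached at most 0.0361. Bpifb9b was called in 22 of them, U90926 in 21, 1810046K07Rik in 19, Prok2 and Lgi3 in 11 each and Fbxl16 in 8.

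As triple K5Cre minus triple Bcat, Ctnnb1 turned from 0.10 to -1.34 and -2.41 in its dimmer probe sets, -1.22 in the mean of its probe sets, and -0.14 with array weights. Array weights also turned Krt8 (-1.06), Krt18 (-0.74), Mki67 (-0.22), Adipoq (-0.74) and Csn3 (-0.13). Leaving out 1 array gave -0.19 to 0.19 for Ctnnb1, -0.37 to 0.89 for Krt8, -0.13 to 1.13 for Krt18, -0.11 to 0.57 for Mki67 and -1.51 to 1.83 for Adipoq, each lowest without triple Bcat array 1. For Myh4 it gave -0.31 (without triple K5Cre array 7) to 0.94, and leaving out arrays 2 and 7 gave -0.24. The median difference of inflammatory cytokines was -0.99 with array weights, -0.97 without triple Bcat array 1 and -2.40 without animal Tbc-266. That of B cell genes was -2.59, -2.27 and -0.13 under the same settings, that of macrophage genes 0.70 without animal Tbc-266, and with array weights those of luminal keratin genes -1.10 and luminal progenitor genes 0.44. Beyond what is said here, the cause was not tested. No paired analysis was possible because the replicate numbers only name the arrays.

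With 2 triple Bcat animals, differences between genotypes and between animals cannot be told apart beyond what those animals show.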
